A study of Mus musculus with 12 samples.

Results

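Recurrent ac4C regions are stretches of the mouse genome where a peak of acetylated RNA was called in at least 4 of the 6 deposited peak lists. All peaks of the 6 lists were merged wherever they overlapped by 1 base or more, which gave 2808 regions, and 237 of them (8.44% of all regions) held a peak in 4, 5 or 6 lists. A further 1776 regions (63.2%) had a peak in a single list and are called single-list regions. The members were chosen by the number of lists with a called peak, so nothing below tests how often they recur.

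The study used peritoneal macrophages, phagocytes of the abdominal cavity, of Mus musculus, kept in culture with IFN-γ (labelled IFN-G), the cytokine of classical macrophage activation. There were 12 samples in 6 groups of 2: ac4C-binding RNA after 0, 24 and 48 h, and total RNA after the same times. The total RNA samples were not used here. The labels give no strain, sex or age of the mice and name no genotype or drug, every group carries the IFN-G label including 0 h, and there is no group kept for 24 h or 48 h without the cytokine, so time and IFN-γ cannot be told apart. Each time has 2 lists, called list 1 and list 2, which name their hour and not their sample. The labels do not say that the samples of a time came from separate animals or cultures.

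N4-acetylcytidine (ac4C) is cytidine with an acetyl group on its base. NAT10 writes it into ribosomal and transfer RNA with the help of partner proteins, and it has been reported in messenger RNA, where it has been linked to RNA stability and translation. An antibody pull-down enriches fragments that carry the mark, and a peak is a stretch where the pull-down exceeded its control, so a peak marks enrichment over a stretch of RNA and not a single acetylated base. A transcript must also be abundant enough for a peak to be called, so the absence of a peak does not show the absence of the mark.

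Of the 237 recurrent regions, 109 had a peak in exactly 4 lists, 73 in exactly 5 and 55 in all 6. The 0 h lists held 217 and 197 of them, the 24 h lists 197 and 171, and the 48 h lists 164 and 185. Their peaks made up 19.4% to 31.3% of the 611 to 1151 peaks of a list, and peaks of single-list regions 29.8% to 40.1%. A peak at all 3 times was present in 212 of the 237 (89.5%). Both lists of a time held a peak in 184 of the regions at 0 h, in 138 at 24 h and in 123 at 48 h. Both 0 h lists were also the longest, with 1151 and 946 peaks, and the 24 h lists (725 and 646 peaks) and 48 h lists (674 and 611 peaks) were shorter. The part of list length in this order was not tested.

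**Figure D1:**
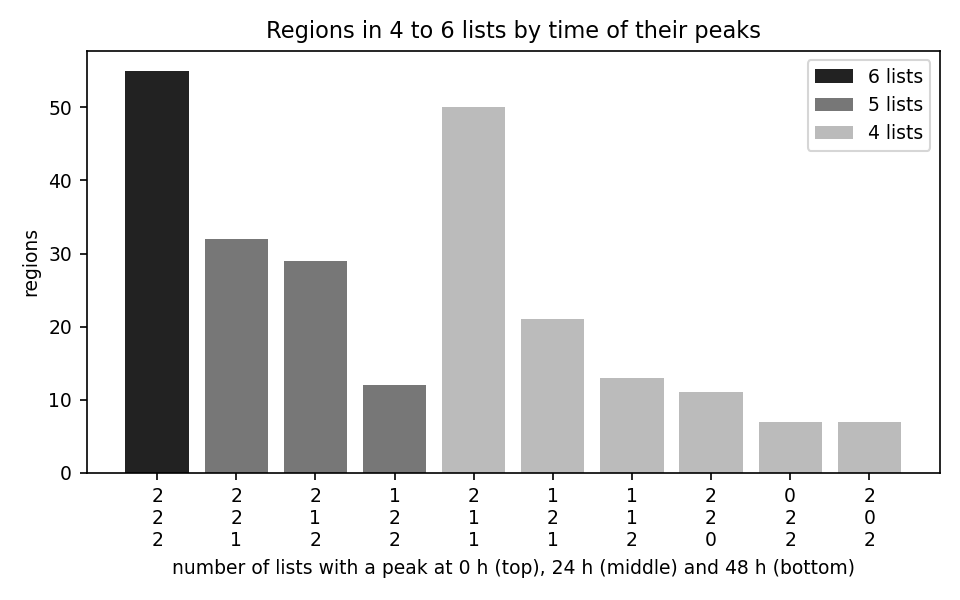
Number of recurrent regions (vertical axis) for each combination of lists with a peak at 0 h, 24 h and 48 h (the 3 rows of digits under each bar); shading gives the total number of lists. The tallest bars are the 55 regions in all 6 lists and the 50 with both 0 h lists and 1 list of each later time.

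The 25 regions that lacked a peak at one time were few and spread over all times. Fold enrichment, here and below, is the authors' ratio of pull-down over control at the best summit of a peak, and q is their p adjusted within the list. Regions were ranked by their number of lists and then by the mean percentile of −log10 p within those lists. There were 7 with no peak at 0 h, 7 with none at 24 h and 11 with none at 48 h, each with a peak in both lists of the other times. Kmt5a, a histone H4 lysine methyltransferase, had the highest-ranked region without one at 0 h, in its 3' UTR (chromosome 5, 124598866 to 124599156, build GRCm39). Its fold enrichment was 4.15 and 2.87 in the 24 h lists and 3.29 and 4.52 in the 48 h lists. Inhba, which encodes a subunit of activin, lacked a 0 h peak in its 5' UTR region at chromosome 13, 16191764 to 16192136, and in 1 of its 4 lists the peak had a q of 1. Srsf1, a splicing factor of the SR family, ranked first among the regions without a 24 h peak, with 3' UTR folds of 3.88 and 3.45 in the 0 h lists and of 4.42 and 4.21 in the 48 h lists. Irak2, a kinase of Toll-like receptor signalling, had the same pattern with folds of 4.24 and 3.57 in the 0 h lists and of 3.38 and 3.50 in the 48 h lists. Cd53, a tetraspanin of leukocytes, was the highest-ranked gene region without a 48 h peak, with 3' UTR folds of 1.92 and 1.99 in the 0 h lists and of 2.80 and 1.64 in the 24 h lists. These folds lie within the range of the regions that had a peak at every time. The time patterns were part of the choice of members and have no test.

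The highest-ranked region of all lay in intron 12 of Kpna4, an importin that carries proteins into the nucleus, and also on the noncoding gene Gm22009, which RefSeq lists as a guide RNA. It spanned chromosome 3, 68992445 to 68992760. Its fold enrichment was 8.20 and 9.31 in the 0 h lists, 6.98 and 9.38 in the 24 h lists and 11.6 and 12.7 in the 48 h lists. Between 310 and 376 pull-down fragments, not scaled, lay under the summit in a list, and the background, called input coverage, was 6.29 to 19 fragments. The fold takes the pull-down count times a factor of the list, 0.259 to 0.468, so these 2 numbers do not give it directly. The p of this region was the smallest of the list in 4 of the 6 lists. Among the 20 highest-ranked regions in 6 lists it had the highest fold in every list. With 2 lists at each time, any order of the times given here or below was read off the values and has no test. The tables give no strand for a peak, so the host intron and the small RNA cannot be told apart. Scarna2, another guide RNA gene by RefSeq (a small Cajal body RNA), had a region in 5 lists at chromosome 3, 108461669 to 108462067. Its folds were 4.53 and 4.06 at 0 h, 2.63 in 24 h list 1, and 5.75 and 8.89 at 48 h.

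Malat1, an abundant nuclear long noncoding RNA, was the one gene with more than 2 recurrent regions. All 4 of its regions were present in all 6 lists, on chromosome 19 at 5846144 to 5846416, 5848202 to 5849206, 5849451 to 5849960 and 5850108 to 5852671. The last was the longest recurrent region, at 2563 bases. In that region the folds were 3.04 and 3.66 in the 0 h lists, 2.77 and 2.29 in the 24 h lists and 3.40 and 2.75 in the 48 h lists. The region at 5849451 had folds of 2.64 and 3.78 in the 0 h lists, 3.35 and 3.41 in the 24 h lists and 4.59 and 2.72 in the 48 h lists. In the first of these both 0 h values were above both 24 h values, and in the second the values of the 3 times overlapped. Another Malat1 region, at 5847238 to 5847727, had a peak in 1 list of each time and so fell just outside the rule, with folds of 2.86 at 0 h, 2.94 at 24 h and 3.97 at 48 h. Neat1, the long noncoding RNA that builds paraspeckles, had 2 regions in 4 lists each. Norad, a cytoplasmic long noncoding RNA that binds Pumilio proteins, had 1 region in 5 lists, with folds of 2.21 to 4.03. Among 13 listed long noncoding RNAs, 4 had a peak somewhere, and 3 of these a recurrent region. Over all genes, 215 of the 2061 genes with a peak in any list had a recurrent region (10.4%).

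**Figure D2:**
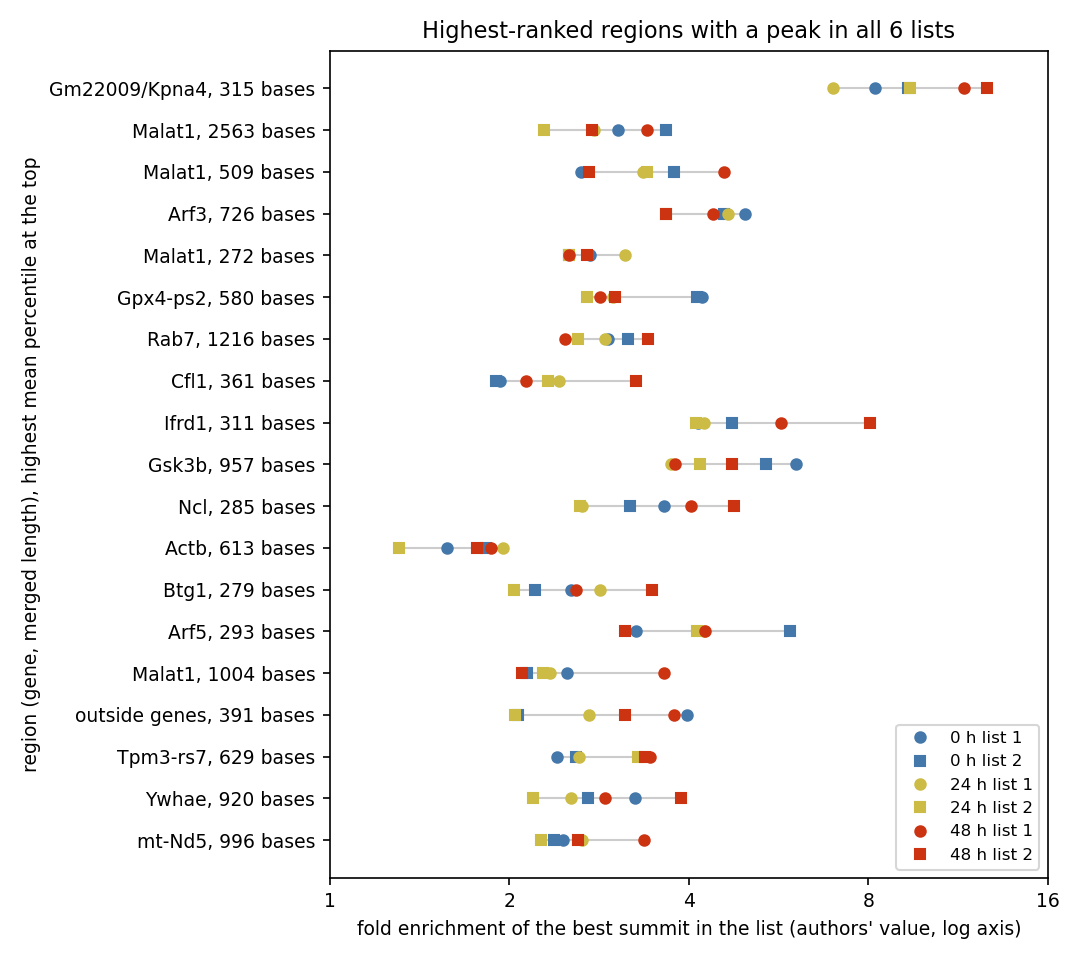
Fold enrichment of the best summit in each of the 6 lists (horizontal axis, log scale) for 19 of the 20 highest-ranked regions present in all lists, with gene and merged length at the left; colour marks the time, the marker shape list 1 or list 2, and a grey line joins the lowest and highest value. The region on Gm22009 and Kpna4 lies at 6.98 to 12.7 and the others mostly between 2 and 6.

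Small GTPases that steer vesicles held several of the strongest regions. Arf3, an ADP-ribosylation factor of the Golgi, had a 3' UTR region at chromosome 15, 98635977 to 98636703. Its folds were 4.96 and 4.59 in the 0 h lists, 4.65 and 3.66 in the 24 h lists and 4.39 and 3.67 in the 48 h lists. Both 0 h values were above both 48 h values, and the 24 h values overlapped with each. Rab7, which directs late endosomes and phagosomes to the lysosome, had a 3' UTR region of 1216 bases at chromosome 6, 87976218 to 87977434, with folds of 2.93 and 3.16 in the 0 h lists, 2.90 and 2.61 in the 24 h lists and 2.48 and 3.42 in the 48 h lists. Arf5 had 3' UTR folds of 3.26 and 5.91 in the 0 h lists, 4.25 and 4.13 in the 24 h lists and 4.26 and 3.13 in the 48 h lists, so its 2 lists at 0 h differed by more than the times did. Arf4, another Golgi GTPase, was also in 6 lists at lower folds of 1.59 to 2.43, and had a q of 0.05 or less in 3 of them. Rab8b, a GTPase of traffic to the plasma membrane, had folds of 4.23 and 4.45 in the 0 h lists, 1.80 and 1.96 in the 24 h lists and 3.86 and 3.40 in the 48 h lists, with a q of 1 in both 24 h lists. Both of its 24 h values were thus below all 4 others. Of the 44 genes listed for membrane traffic and small GTPases, 25 had a peak and 8 a recurrent region, namely Arf3, Arf4, Arf5, Arf6, Rab18, Rab1a, Rab6a and Rab7. The other 17 listed genes with a peak, among them Cdc42, Rab5a and Rab10, had peaks in at most 3 lists at any one place. Rab8b, Rab9, Rap2a and Rap2b also had recurrent regions but are not in that gene list and not in its counts. Over all protein-coding genes with a peak, 184 of 1779 (10.3%) had a recurrent region. The gene lists were chosen with earlier results of these data known, and no list was tested.

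The actin skeleton was represented by the filament protein itself and by proteins that cut, branch and move it. Actb, cytoplasmic beta-actin, had a 3' UTR region at chromosome 5, 142888928 to 142889541, with low folds of 1.57 and 1.83 in the 0 h lists, 1.95 and 1.30 in the 24 h lists and 1.86 and 1.76 in the 48 h lists. These folds stood beside large counts, since its −log10 q was 52.6 and 92.5 in the 0 h lists, 34.1 and 2.39 in the 24 h lists and 27.5 and 15.3 in the 48 h lists. Cfl1, cofilin, which severs actin filaments, had 3' UTR folds of 1.93 and 1.90 in the 0 h lists, 2.42 and 2.32 in the 24 h lists and 2.13 and 3.26 in the 48 h lists. Both 0 h values of Cfl1 were the lowest of the 6. Myh9, a non-muscle myosin heavy chain, had 2 recurrent regions, and the values here are from 1 of them, found in 6 lists. Its folds were 2.96 and 1.85 in the 0 h lists, 3.36 and 2.18 in the 24 h lists and 4.03 and 4.78 in the 48 h lists. Both 48 h values were the highest in that region. Tmsb4x, a thymosin that binds actin monomers, had a region in 4 lists with folds of 1.82 and 1.99 at 0 h, 1.85 at 24 h and 2.18 at 48 h. It was missing from 24 h list 1 and from 48 h list 1 in spite of a −log10 q of 23.1 to 72.5 where it was called. Of the 43 listed genes of the actin and tubulin cytoskeleton 19 had a peak and 7 a recurrent region, the other members being Actr2 and Actr3, which form the branching Arp2/3 complex, and Marcks, an actin-binding membrane protein. Actr3 was in all 6 lists, with a q of 0.05 or less at 0 h alone and a q of 1 in all 4 later lists. Beside the 7 of 19 genes above, 10.3% of all protein-coding genes with a peak had a recurrent region.

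RNA-binding proteins and translation factors formed another group. Ncl, nucleolin, a protein of the nucleolus, had 2 regions in 6 lists, in exon 4 at chromosome 1, 86284221 to 86284506, and in exon 3 at 86284678 to 86285080. The exon 4 folds were 3.64 and 3.18 in the 0 h lists, 2.65 and 2.63 in the 24 h lists and 4.04 and 4.75 in the 48 h lists. The 3 times did not overlap there, with 24 h lowest and 48 h highest. In exon 3 the folds were 3.42 and 2.47 in the 0 h lists, 2.77 and 1.61 in the 24 h lists and 2.39 and 2.65 in the 48 h lists, so the times overlapped. Hnrnpu and Hnrnpk, nuclear RNA-binding proteins, had regions in 6 lists in exon 10 and in the 3' UTR. Eif4a2, a helicase of translation initiation, had 3' UTR folds of 1.70 and 2.63 in the 0 h lists, 3.08 and 3.40 in the 24 h lists and 2.10 and 3.46 in the 48 h lists. Recurrent regions were found for 10 of the 33 peaked SR and hnRNP splicing factors (46 listed) and for 6 of the 19 peaked translation factors (39 listed). Ncl was the one gene among 8 peaked genes of the nucleolus and ribosome assembly (32 listed). None of the 13 cytosolic ribosomal protein genes with a peak (80 listed) had a recurrent region. Nor did any of the 9 peaked RNA modification genes (31 listed), which include the m6A readers Ythdf1, Ythdf2 and Ythdf3. The share over all protein-coding genes with a peak was 184 of 1779 (10.3%). At that share few or none would be found among 13 or 9 genes, so these absences set neither group apart.

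Signalling and transcription regulators followed. Gsk3b, glycogen synthase kinase, had a 3' UTR region in 6 lists at chromosome 16, 38063098 to 38064055, and a second in 5 lists. The folds of the first were 6.06 and 5.38 in the 0 h lists, 3.74 and 4.18 in the 24 h lists and 3.79 and 4.73 in the 48 h lists, both 0 h values being above the 4 later ones. Ywhae, Ywhag and Ywhaz, adaptors that bind phosphorylated proteins, had 3' UTR regions in 6, 6 and 5 lists. Those of Ywhae had folds of 3.25 and 2.71 in the 0 h lists, 2.54 and 2.19 in the 24 h lists and 2.89 and 3.88 in the 48 h lists. Btg1, an antiproliferative cofactor of mRNA decay and transcription, had last-exon folds of 2.54 and 2.21 in the 0 h lists, 2.84 and 2.04 in the 24 h lists and 2.59 and 3.47 in the 48 h lists. The pull-down fragments under the Btg1 summit numbered 178 and 229 in the 0 h lists, 827 and 696 in the 24 h lists and 764 and 731 in the 48 h lists. Its fragments were thus several times as many at both later times, but the counts are not scaled to library totals, which are not given. They count the pull-down alone, while the folds are taken over the control, so they do not by themselves show a gain of the mark. Both 48 h folds were above both 0 h folds, while those of 24 h and 0 h overlapped. Ifrd1, a transcriptional coregulator, had 3' UTR folds of 4.14 and 4.72 in the 0 h lists, 4.25 and 4.11 in the 24 h lists and 5.70 and 8.04 in the 48 h lists, both 48 h values being the highest. Jund, a subunit of the AP-1 transcription factor, was in 6 lists, and Jun and Cebpb in 5. Of the 54 listed regulators of transcription and chromatin 33 had a peak and 9 a recurrent region. Of the 46 listed kinases, phosphatases and their adaptors 20 had a peak and 5 a recurrent region. Over all protein-coding genes with a peak the share with a recurrent region was 10.3%.

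Genes of macrophage function were also among the members. Sirpa, the inhibitory receptor that reads CD47, had the highest-ranked region in 5 lists, in the 3' UTR at chromosome 2, 129472698 to 129473054. Its folds were 3.62 and 4.06 at 0 h, 3.93 in 24 h list 1, and 3.86 and 3.27 at 48 h. Ifngr2, which encodes a subunit of the receptor for IFN-γ, had its region in 5 lists, in the 3' UTR at chromosome 16, 91360499 to 91360868, with folds of 4.17 and 5.40 at 0 h, 4.32 in 24 h list 2, and 3.32 and 4.81 at 48 h. It was the one gene with a recurrent region among the 22 listed for IFN-γ signalling, of which 4 had a peak. Trim25, a ubiquitin ligase of antiviral RNA sensing, and Slfn2, an interferon-induced schlafen protein, were in 6 lists, and Cd274, which encodes the checkpoint ligand PD-L1, in 4. They were the 3 members of the 9 peaked interferon-induced effectors (56 listed). Among all protein-coding genes with a peak 10.3% had a recurrent region, and 1 of 4 and 3 of 9 rest on few genes. Cd274 had folds of 3.78 and 2.47 at 0 h, 2.54 in 24 h list 1 and 2.52 in 48 h list 1. The fragments under its summit, not scaled to library totals, numbered 47 and 43 at 0 h, 231 at 24 h and 243 at 48 h. These too count the pull-down alone and not the control.

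Of 39 listed NF-κB and inflammatory genes 12 had a peak and 3 a recurrent region. They were Cxcl2, a neutrophil chemokine, Ier3, an immediate early response gene, and Nfkbia, the inhibitor that holds NF-κB in the cytoplasm. Nfkbia had 3' UTR folds of 2.34 and 3.45 at 0 h, 4.38 and 4.67 at 24 h and 2.70 in 48 h list 2. Of 39 genes listed for alternative activation and repair 12 had a peak and 5 a recurrent region: Hmox1, Sirpa, Spp1, Stat6 and Thbs1. The share over all protein-coding genes with a peak was 10.3%, and no list was tested. Hmox1, heme oxygenase, was in 6 lists with last-exon folds of 2.24 and 2.24 in the 0 h lists, 1.91 and 1.89 in the 24 h lists and 2.43 and 3.42 in the 48 h lists. Cat, catalase, had 3' UTR folds of 4.93 and 4.76 in the 0 h lists, 2.57 and 2.19 in the 24 h lists and 3.00 and 3.56 in the 48 h lists, with both 0 h values above the 4 later ones. Among 46 lysosomal genes 21 had a peak and 6 a recurrent region, such as Atp6ap2, an accessory protein of the proton pump, in 6 lists, and Lgmn, a lysosomal protease, in 4. Ptprc, the leukocyte phosphatase CD45, had last-exon folds of 3.80 and 4.28 in the 0 h lists, 4.27 and 2.54 in the 24 h lists and 2.06 and 2.27 in the 48 h lists. The 48 h peaks of Ptprc both had a q of 1.

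The label of the cells was set against marker genes. Of 26 macrophage marker genes, 6 had a peak in any list, Itgam and Lyz2 among them, and none had a recurrent region; Adgre1 and Csf1r, which define the type, had no peak. Of 70 marker genes of B cells, T and NK cells, neutrophils, mast cells and eosinophils, mesothelial cells and fibroblasts, 1 had a peak, Wt1 of the mesothelium, in a single list. At the share of 10.3% over all protein-coding genes with a peak, no recurrent region among 6 macrophage markers says little. Peaks measure enrichment and not expression, and in such bulk samples fewer cells of a type and less RNA per cell cannot be told apart.

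The mitochondrial messages mt-Co1, mt-Cytb, mt-Nd1, mt-Nd2 and mt-Nd5, which encode subunits of the respiratory chain, each had a recurrent region, 5 of the 11 peaked genes of oxidative phosphorylation (43 listed). None of the 5 peaked nuclear genes of that list had one. Ndufs4, a nuclear subunit of complex I that the list does not hold, had one in 4 lists. The share over all protein-coding genes with a peak was 10.3%, so none among 5 nuclear genes says little. The mt-Nd5 region was in 6 lists, at MT 12967 to 13963, with folds of 2.46 and 2.38 in the 0 h lists, 2.65 and 2.26 in the 24 h lists and 3.36 and 2.60 in the 48 h lists. Both 48 h values were above both 0 h values, and the 24 h values overlapped with each.

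Functional terms in the authors' annotation were counted in genes with a recurrent region and in genes with single-list regions alone. The terms given were chosen after their values were seen, among terms with 8 or more genes of the recurrent set. They are the 8 widest gaps upward and the 2 widest downward in percentage points, with RNA binding beside them. Plasma membrane was assigned to 58 of 184 protein-coding genes with a recurrent region (31.5%) and to 222 of 1049 genes never above 1 list (21.2%). Protein binding was assigned to 102 (55.4%) against 502 (47.9%), integral component of membrane to 46 (25%) against 196 (18.7%), and membrane to 78 (42.4%) against 388 (37.0%). Nucleotide binding had 34 (18.5%) against 132 (12.6%), and GTP binding 15 (8.15%) against 25 (2.38%). The 15 were Arf3, Arf4, Arf5, Arf6, Rab18, Rab1a, Rab6a, Rab7, Rab8b, Rab9, Rap2a, Rap2b, Eif5b, Septin2 and Septin7. Synapse had 17 (9.24%) against 37 (3.53%), and protein heterodimerization activity 14 (7.61%) against 24 (2.29%). Lower were metal ion binding, with 21 (11.4%) against 204 (19.4%), and nucleoplasm, with 40 (21.7%) against 304 (29.0%). RNA binding was at 21 (11.4%) against 98 (9.34%). The comparison covered the 97 terms with 8 or more genes of the recurrent set. Terms frequent among single-list genes alone could not enter, so the choice favours upward gaps, and wider downward gaps may exist outside it. Genes hosting a region in an intron are counted, and no test was made. Of all 1779 protein-coding genes in the lists, these 184 were 10.3%.

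Recurrent peaks were longer, better supported and less enriched than single-list peaks. The median length of a single peak was 272 to 340 bases over the 6 lists for recurrent regions and 220 to 247.5 bases for single-list regions, longer in 6 of 6 lists. The merged recurrent regions had a median of 434 bases (229 to 2563), against 240 bases for single-list regions, a difference that merging several peaks makes by itself. The summits of the lists lay within a median of 58 bases, and within 100 bases in 163 of the 237 regions (68.8%). Peaks had to overlap to be merged, so nearness is partly set by the rule. Regions in 2 and 3 lists had closer summits, with medians of 28 and 37 bases, and those in all 6 lists had a median of 74. In 3 recurrent regions no base was common to all the lists, since peaks were joined through one another. The median fold was 2.44 to 2.99 in recurrent peaks and 3.10 to 3.49 in single-list peaks, lower in 6 of 6 lists. The median −log10 p was 6.92 to 10.3 in recurrent peaks, against 4.08 to 4.57, and the share of peaks with a q of 0.05 or less was 58.6% to 78.9%, against 17.6% to 36.1%. A q of 0.05 or less in every list that held it was reached by 85 of the 237 regions, and in none by 18. These measures come from the peak calls that chose the regions and have no test.

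Recurrent peaks also had a higher input coverage, here the background level at the summit solved from the authors' fold and p. How the authors set this background is not stated, so input coverage need not be the control signal at the summit itself. Its median was 8.00 to 18 fragments at recurrent peaks and 1.09 to 3 at single-list peaks, between 6.00 and 9.00 times as high in each list. The pull-down held a median of 102 to 130.5 fragments under a recurrent summit and 22 to 30 under a single-list summit. These counts are not multiplied by the factor of the list, 0.259 to 0.468, that enters the fold, so they are not on the scale of the input coverage. When the peaks of a list were split into 4 equal bins by input coverage, recurrent peaks made up 3.06% of the lowest bin, then 10.3%, 29.9% and 61.5% of the highest (medians over the lists). By fold the shares ran the other way, with 41.2% of the lowest bin and 19.6% of the highest. Input coverage therefore moved with recurrence in all 6 lists, and its part in the choice of these genes was not tested.

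**Figure D3:**
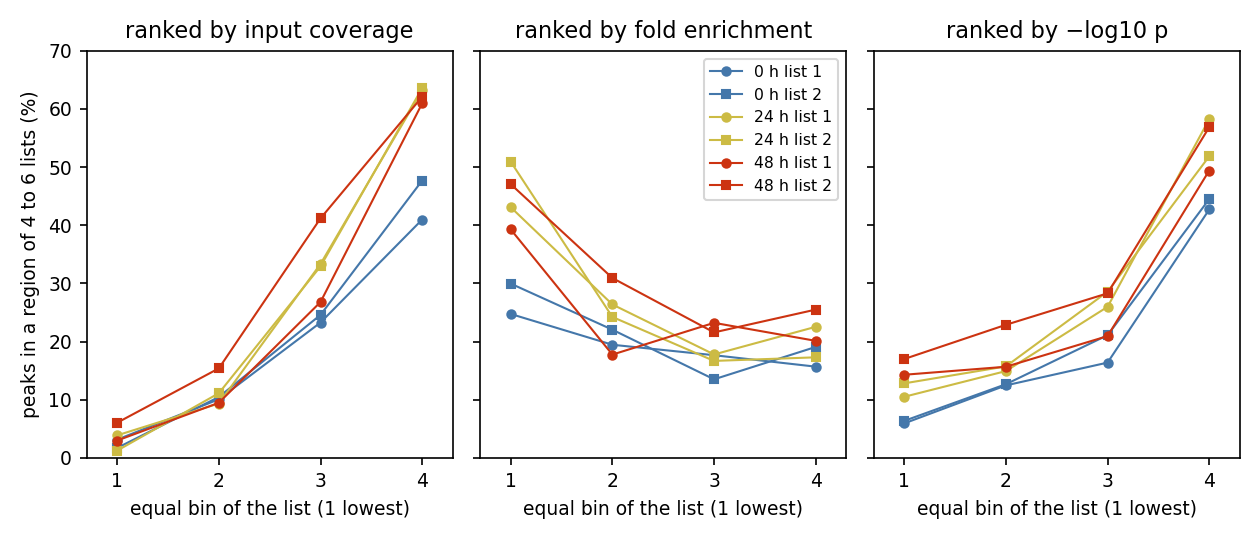
Share of a list's peaks that lie in recurrent regions (vertical axis, percent) in 4 equal bins of the list ranked by input coverage (left), fold enrichment (middle) and −log10 p (right), 1 line for each list. The share climbs with input coverage in every list, to 41.0% to 63.6% in the highest bin, and is highest in the lowest bin by fold.

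Each list was also left out in turn, with regions merged over the other 5. A region present in 1 of the other 5 lists had a peak in the left-out list in a median of 9.42% of cases (7.81% to 18.9% over the left-out lists). The share was 19.7% for 2 lists, 37.6% for 3 and 82.2% for 5, and in the last class it lay between 74.3% (48 h list 1) and 94.8% (0 h list 1), over 58 to 74 regions. Regions in all 5 other lists had a median percentile of −log10 p between 80.7 and 90.1 in the left-out list where they were found, against 36.6 to 50.4 for regions in 1 other list. The 2 lists with the highest shares in that last class were the longest, those of 0 h.

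**Figure D4:**
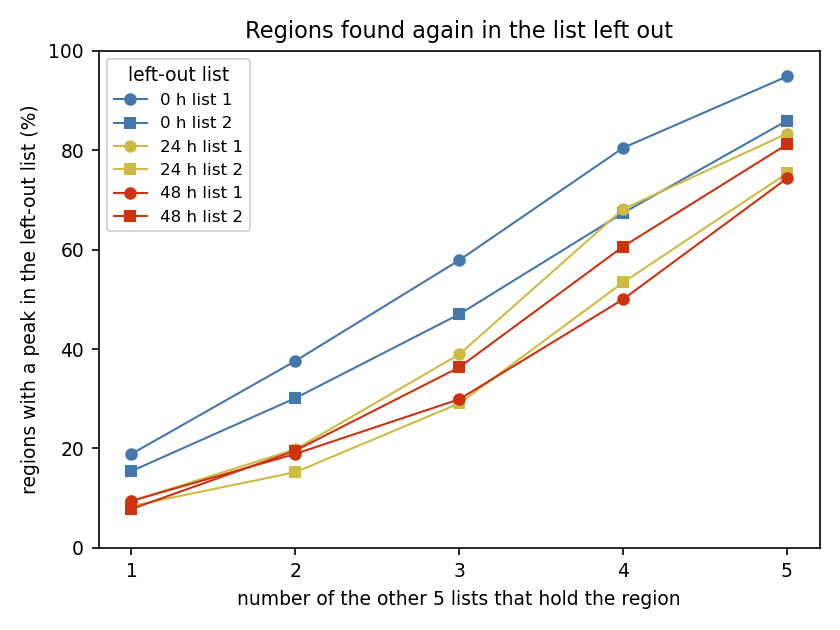
Share of regions with a peak in the list left out (vertical axis, percent) by the number of the other 5 lists that hold the region (horizontal axis), 1 line for each left-out list. Every line climbs, from at most 18.9% at 1 list to at least 74.3% at 5 lists.

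At the edge of the rule the regions were mixed. The 3 lowest-ranked regions in 4 lists lay in exon 5 of Sdcbp, a scaffold protein, in the 3' UTR of Mdm2, the ubiquitin ligase of p53, and outside genes on chromosome 5 at 149540541 to 149541067. Their folds were 1.40 to 1.63, 1.81 to 2.02 and 2.18 to 2.44, each with a q of 1 in all 4 lists. The 3 highest-ranked regions in 3 lists lay on Mir682 and Gm4149, on the pseudogene Rps24-ps3 and on Malat1, with a q of 0.05 or less in all their lists. The fold on Mir682 and Gm4149 was 3.91 to 4.46.

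The place of a peak in its gene was not used by the rule. Of the 237 recurrent regions 120 (50.6%, Clopper-Pearson 95% interval 44.1% to 57.2%) were centred in a 3' UTR, 56 (23.6%, 18.4% to 29.6%) in a last exon outside an annotated 3' UTR, 29 (12.2%, 8.35% to 17.1%) in another exon, 8 (3.38%) in a 5' UTR, 5 (2.11%, 0.688% to 4.85%) in an intron and 19 (8.02%) outside genes. Of the 1776 single-list regions 814 (45.8%, 43.5% to 48.2%) were centred in a 3' UTR, 273 (15.4%, 13.7% to 17.1%) in a last exon, 369 (20.8%, 18.9% to 22.7%) in another exon, 56 (3.15%) in a 5' UTR, 122 (6.87%, 5.74% to 8.15%) in an intron and 142 (8.00%) outside genes. These intervals cover counting error alone.

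Last exons were more frequent, and other exons and introns less frequent, among recurrent peaks in every list. The last exon held 24.7% ± 2.51 of recurrent peaks and 15.2% ± 1.73 of single-list peaks (SD, n = 6 lists), a difference of 9.51 percentage points (7.69 to 12.9, higher in 6 of 6 lists). Other exons held 11.2% ± 1.54 of recurrent peaks and 21.4% ± 8.46 of single-list peaks, a difference of -10.2 points (lower in 6 of 6 lists). Introns held 2.03% ± 0.902 of recurrent peaks and 7.03% ± 1.29 of single-list peaks, a difference of -4.99 points (lower in 6 of 6 lists). Each of these had an exact two-sided sign-flip permutation p of 0.03125, the smallest that 6 lists can give, and an adjusted p of 0.0625 over the 8 shares tested (Benjamini-Hochberg), so none passed 0.05. The recurrent regions are largely the same in every list, so the 6 differences are not independent and the p covers only the spread between lists. With only peaks above the median input coverage of their list, an alternative chosen after seeing the data, the last exon difference was 9.30 points (exact p = 0.03125) but that of other exons was -4.17 points and that of introns -0.84 points (exact permutation p = 0.2812 and 0.4062). Introns also had a smaller difference above the median −log10 p, at -2.66 points (exact permutation p = 0.1875).

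The 3' UTR share did not differ beyond the spread between lists. It was 51.2% ± 3.72 of recurrent peaks and 45.1% ± 11.1 of single-list peaks (SD, n = 6 lists), higher in 4 of 6 lists, with an exact permutation p of 0.125 and an adjusted p of 0.2. The main difference of 6.08 points became -4.82 above the median input coverage and 11.91 on protein-coding genes alone (higher in 5 of 6 lists, exact permutation p = 0.0625). The 5' UTR difference was -0.12 points (exact permutation p = 0.8125, adjusted 0.929) and that outside genes -0.26 points (exact permutation p = 0.59375, adjusted 0.792), higher in 3 of 6 lists each.

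The share of last exons was 15.4% of regions in 1 list, 13.4%, 19.0% and 16.5% of those in 2, 3 and 4 lists, and 30.1% and 29.1% of those in 5 and 6 lists, so it was highest in the last 2 classes. Of the 56 recurrent regions in a last exon 31 lay on protein-coding genes, 16 on pseudogenes or predicted loci and 9 on other noncoding genes such as Malat1, whose single exon is also its last. Of the 273 single-list ones 179, 84 and 8 did so. With peaks on protein-coding genes alone, an alternative chosen after seeing the data, the last exon difference was 5.30 points (higher in 6 of 6 lists, exact permutation p = 0.03125, adjusted 0.08333).

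Protein-coding genes were hit by 82.3% ± 0.369 of recurrent peaks and by 86.4% ± 1.27 of single-list peaks (SD, n = 6 lists), a difference of -4.08 points in the same direction in 6 of 6 lists (exact permutation p = 0.03125, adjusted 0.0625). With only peaks above the median −log10 p of their list the difference was -1.50 points (exact permutation p = 0.375). Pseudogenes and predicted loci were hit by 9.52% ± 1.53 and by 9.43% ± 1.55 (exact permutation p = 0.9375). The highest-ranked pseudogene region was Gpx4-ps2, a copy of the glutathione peroxidase gene Gpx4, at chromosome 10, 45751532 to 45752112, with folds of 4.22 and 4.12 in the 0 h lists, 2.98 and 2.70 in the 24 h lists and 2.84 and 3.01 in the 48 h lists. Both 0 h values were above all later ones. Tpm3-rs7, related to a tropomyosin gene, was also in 6 lists, with folds of 2.41 to 3.45. Reads from a parent gene can be placed on such copies, so the gene behind these regions is uncertain.

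Of the 19 recurrent regions outside genes, 2 were in all 6 lists. One, at chromosome 15, 83038239 to 83038630, lay 4580 bases from the start of the nearest annotated gene, Rnu12, a small nuclear RNA gene, with folds of 3.97 and 2.07 in the 0 h lists, 2.72 and 2.05 in the 24 h lists and 3.78 and 3.13 in the 48 h lists. The other, at chromosome 13, 75918902 to 75920292, had folds of 2.28 to 3.61. The 5 intron regions lay in Gpnmb, 4930430E12Rik, Cdk11b, Ptms and Anp32a. The region on Kpna4 and Gm22009 was not counted among them, since a UTR or exon takes precedence over an intron. Gpnmb, a glycoprotein of macrophage lysosomes, had its region in intron 4 in 5 lists, with folds of 2.19 to 3.65.

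There were 16 genes with 2 or more recurrent regions, Malat1 with 4 and Actr2, Anp32b, Cul3, Gsk3b, Hnrnpu, Mcl1, Myh9, Ncl, Neat1, Rbms1, Sdcbp, Sfr1, Sh3glb1, Sirpa and Trim25 with 2 each. Of the 1776 single-list regions 105 (5.91%) lay in a gene that also had a recurrent region. Myh9 had 6 regions in all, of which 2 were recurrent and 2 were found in a single list.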

How the data were processed

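ac4C pull-down RNA of mouse peritoneal macrophages was read from 6 deposited peak tables, 2 for each of 0, 24 and 48 h. BWA 0.7.12, MACS2 2.1.0 and GRCm39 are named in the submitters' processing notes; their roles and settings, and the controls, are not stated there. Fold enrichment is the authors' ratio, and p and q are −log10 values, per the file headers; they describe and rank peaks within a list. The peak score, deposited by the authors, is 10 times −log10 p cut to a whole number and was not used. Coordinates are printed as deposited, and a start may differ by 1 base from a browser's. Place is the authors' annotation of the peak centre, a UTR taking precedence over an exon and an exon over an intron.

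Peaks of the 6 lists were merged by 1 base of overlap, strand ignored (Python 3.11.15, pandas 2.3.3). The whole number of pull-down fragments and the input coverage at each summit were solved from fold and p, which matched within 0.005 of −log10 p. A factor for each list, 0.259 to 0.468, scaled the pull-down in this step. Fragment counts are printed without it. Library totals are not given in the tables. Regions were ranked by number of lists, then by mean percentile of −log10 p. Named were the 20 highest in 6 lists, the 6 highest in 5 and in 4, the edges of the rule, the longest, those missing at one time, the highest outside genes, in introns and on pseudogenes, and the 4 highest of each of 21 gene lists; others are named after their values were seen, and 1 region of the first 20 is not reported here. Gene types came by symbol from a RefSeq table of GRCm38.p6 (94.4% of 2095 symbols matched). Shares were compared by exact sign-flip permutation over the 6 lists (SciPy 1.17.1); the procedure was checked on simulated data. The members and gene lists were chosen with earlier results of these data known. Alternatives are given in the closing section. Sequences were not used, since no genome of the files' build was at hand.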

Additional observations from a re-analysis of the deposited data

Results flagged for a closer look

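One difference was picked out because the lists of both times moved in opposite directions. The share of peaks outside genes in recurrent regions minus that in single-list regions had a mean of 0.71 percentage points at 48 h and of -0.76 points at 0 h, a difference of 1.47 points. The 48 h lists were at 1.32 and 0.109 points and the 0 h lists at -0.617 and -0.903. The 24 h lists, at 0.558 and -2.05, differed from each other by more than that gap. The difference between the times was not tested.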

How the results depend on the processing

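The number of recurrent regions was set by the rule. It was 237, against 123 with peaks of q of 0.05 or less, 18 at a fold of 4 or more, 128 for 5 or 6 lists and 55 for all 6, and 145 to 182 with 1 list left out (4 of 5 then required, so fewer by construction; 145 without 0 h list 1 and 157 without 24 h list 1). Last exon, other exon and intron differences kept their direction in all 17 alternatives each, but not always their size: the last exon was at 4.794 at a fold of 4 or more (exact p = 0.0625), other exons at -6.255 with 50% reciprocal overlap and at -4.17 above the median input coverage (exact p = 0.09375 and 0.2812), and introns at -2.601 at a q of 0.05 or less, -4.052 at a fold of 4 or more, -2.655 above the median of p and -0.84 above that of input coverage (exact p = 0.09375, 0.0625, 0.1875 and 0.4062). With members in 5 or 6 lists and in all 6, they were 13.79 and 13.71, -14.01 and -13.42, and -5.368 and -6.443 points, all at exact p = 0.03125 and an adjusted p of 0.05 or 0.04167. With 1 list left out the ranges were 9.263 to 13.95, -12.89 to -10.28 and -5.572 to -3.848; the smallest p is then 0.0625. The protein-coding difference was -4.881 and -2.117 in 5 or 6 and in 6 lists (exact p = 0.03125), -5.571 to -3.554 with 1 list left out, -1.495 above the median of p (exact p = 0.375), and turned to 1.254 at a fold of 4 or more. The difference outside genes was -1.634 and -4.024 in 5 or 6 and in 6 lists (exact p = 0.03125). It was -2.685 at a q of 0.05 or less, -5.324 at a fold of 4 or more and -2.087 above the median of p (each exact p = 0.03125). With 1 list left out it was -1.871 to -0.1862. It turned to 0.9367 above the median input coverage of a list, where the 3' UTR difference turned to -4.823. Elsewhere the 3' UTR difference was 3.244 (50% reciprocal overlap) to 13.05 (a fold of 4 or more), 11.61 in all 6 lists and 4.579 to 8.701 with 1 list left out. The 5' UTR difference of -0.12 kept its direction in 10 of 17 alternatives. It turned to 0.6187 with 50% reciprocal overlap, 0.3511 at a q of 0.05 or less and 0.4507 at equal list length. Against regions in 1 or 2 lists it was 0.167, and with exons before UTRs 0.2084 (-1.498 to 0.2286 with 1 list left out). At a fold of 4 or more it was 10.80 points, 15% against 4.2%, higher in 6 of 6 lists (exact p = 0.03125, adjusted 0.08333). Only 18 regions were members at that setting. The pseudogene difference of 0.088 was reversed in 9 of 15 alternatives and kept its direction in 6. It turned to -3.235 at a q of 0.05 or less, -0.4855 at equal list length and -0.2216 in 5 or 6 lists (-1.15 to 2.576 with 1 list left out). In all 6 lists it was -3.708, and above the median of p and of input coverage -3.402 and -2.976. Each of these 3 was higher in 0 of 6 lists (exact p = 0.03125, adjusted 0.04167, 0.0625 and 0.08333). The causes were not tested. The limit to peaks above the median input coverage and the restriction to protein-coding genes were chosen after seeing the data. The planned sequence comparisons were not run for want of a genome of the build. No paired analysis was possible because the lists name no sample.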
